A study of Arabidopsis thaliana with 3 samples.

Results

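The copper economy genes described here are 6 loci picked by name from the authors' deposited tables of whole Arabidopsis thaliana seedlings: the copper/zinc superoxide dismutase genes CSD1 and CSD2, the iron superoxide dismutase gene FSD1, the metal reductase gene FRO4 and the microRNA genes MIR398C and MIR408. They are 6 of 2666 genes listed in either table. They were picked because their changes in these tables were already known, so their fold changes are a description and support nothing by themselves. RNA was sequenced from 14-day-old seedlings of 3 genotypes, Col-0 as the wild type, pwo1, and a double mutant of CRWN1 and CRWN2 (crwn1 crwn2), all grown upright on MS medium in long days after 2 days of stratification. The series' design text states 3 biological replicates per genotype. PWO1 carries a PWWP domain and is known to act with Polycomb proteins, while the CRWN proteins form coiled coils at the nuclear periphery and resemble lamins. The sources used here do not give the mutant alleles, and the labels name no transgene or treatment.

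Copper is the cofactor of plastocyanin in photosynthesis and of the copper/zinc superoxide dismutases. When copper is scarce, the transcription factor SPL7 binds GTAC cores in its target promoters and raises the microRNAs miR397, miR398, miR408 and miR857, the iron superoxide dismutase FSD1 and copper uptake genes that include FRO4. The microRNAs then cut the messages of copper proteins that the plant can do without, so CSD1 and CSD2 fall while FSD1 takes over their task, and with ample copper the reverse is seen. That is background on the pathway, and copper was not measured in these seedlings.

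MIR398C and MIR408 each give a microRNA from the 3′ arm of the hairpin, and these are shown because miR398 is the known regulator of CSD1 and CSD2. The sequences are from RefSeq, build TAIR10.1, with the seed (bases 2 to 8) in capitals. MIR398A, MIR398B and MIR398C share 1 seed on the 3′ arm. The mature miR398b-3p and miR398c-3p are the same 21 bases, so this product does not tell MIR398B and MIR398C apart. The last base of miR398a-3p is different.
miR398a-3p: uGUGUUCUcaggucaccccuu
miR398b-3p: uGUGUUCUcaggucaccccug
miR398c-3p: uGUGUUCUcaggucaccccug
miR408-3p: aUGCACUGccucuucccuggc

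A scan of the spliced RefSeq messages of 31464 genes ranked known targets of these microRNAs by complementarity, and the ranks ran from 2 to 6566. The penalty was 1 for a mismatch and 0.5 for a G:U pair, doubled at microRNA bases 2 to 13, and 1 unpaired base was allowed at the cost of a mismatch. For miR398c-3p the site in CSD1 lies in the 5′ UTR, at bases 118 to 138 of the message, across a splice junction. It had a penalty of 6, which ranked 24. The site in CSD2 lies in the coding sequence at chr2:12015572-12015591 on the plus strand, with a penalty of 5 and a rank of 7. Without an unpaired base the penalty for CSD2 was 10 and its rank 3513, so that match depends on the scan, while CSD1 kept a penalty of 6. Neither form of the scan was planned. The sites are shown because they are the sequence link between MIR398C and the superoxide dismutase members.
CSD1 site: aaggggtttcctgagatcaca
CSD2 site: tgcgggtgacctgggaaaca

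Other known targets of miR398 had a spread of scores. CCS, the chaperone that loads copper into CSD1 and CSD2, had a penalty of 5, and COX5b-1, a subunit of cytochrome c oxidase, had a penalty of 4, or 8 without an unpaired base. The blue copper protein gene BCB had a penalty of 9.5 and a rank of 6566, so this scan does not single it out. For miR408-3p the plantacyanin gene ARPN had a penalty of 1, the laccase genes LAC12 and LAC13 had one of 4.5 each, and LAC3 had one of 5. A low penalty is a description of the letters and not evidence of cutting in these seedlings.

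In crwn1 crwn2, CSD1 and CSD2 were higher and FSD1, FRO4, MIR398C and MIR408 were lower than in Col-0. All 6 members are listed, 2 as higher and 4 as lower, where 5.08% of all annotated genes are listed, 2.87% as higher and 2.21% as lower. The members were chosen from these comparisons, so nothing is read from those shares. In pwo1, CSD1 is the 1 member listed, where 3.25% of all annotated genes are listed, 1.38% as higher and 1.87% as lower. The values are the authors' log2 fold changes, mutant over Col-0, where 1 is a doubling. Levels in each library were not analysed here, and the order of levels between genotypes can be read only from these differences. Each p-value is that of the authors' test, and an approximate 95% interval was derived from it as if the estimate were normally distributed. In whole seedlings, fewer cells of a type and less RNA per cell cannot be told apart.

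CSD1 (AT1G08830) encodes the cytosolic copper/zinc superoxide dismutase, which turns superoxide into hydrogen peroxide. It lies on the plus strand at chr1:2827060-2829315 in TAIR10.1. In crwn1 crwn2 the authors' deposited table gives it a log2 fold change of 1.37 by edgeR, which is 2.58-fold higher (edgeR p = 4.65e-08), with an approximate interval of 0.88 to 1.86. Cuffdiff gives 1.21 in the authors' deposited table. In pwo1 the authors' deposited table gives 0.81 by edgeR (p = 0.00144), with an approximate interval of 0.31 to 1.31, and 0.85 by Cuffdiff. CSD1 thus lay above Col-0 in both mutants by both tools, and the approximate intervals of the mutants overlap. The pwo1 call was the weaker: it was lost at p under 0.001 in both tools, at 2-fold, and with the Benjamini-Hochberg bound on the authors' edgeR p-values, which was 0.0558. That bound is an upper limit and does not give the adjusted p itself. Both comparisons use the same Col-0 samples, and the difference between the mutants was not tested. PWO1 itself is not listed, and the header, Col vs pwo1, does not state which way the difference runs. The direction in pwo1 is therefore taken to follow that of crwn1 crwn2, whose header has the same form. In crwn1 crwn2 the mutated genes set the sign, with CRWN1 at -3.03 and CRWN2 at -2.42 in the authors' deposited table. A stretch of 211 bases of CSD1 overlaps emb2411 on the opposite strand, of which 41 bases lie in exons, and emb2411 is in neither table.

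CSD2 (AT2G28190, plus strand, chr2:12014412-12016569) encodes the chloroplast copper/zinc superoxide dismutase. In crwn1 crwn2 the authors' deposited table gives a log2 fold change of 1.40 by edgeR (p = 0.00141) and 1.37 by Cuffdiff. That is 2.64-fold higher, with an approximate interval of 0.54 to 2.26 on the log2 scale. The estimates for CSD1 and CSD2 in crwn1 crwn2 are thus close in size, while the interval of CSD2 is the widest of the 6 members in that comparison. The coding sequences of CSD1 and CSD2 are identical at 48.6% of aligned positions. CSD2 is not listed for pwo1, which does not show that it was unchanged.

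FSD1 (AT4G25100, minus strand, chr4:12884300-12887011) encodes an iron superoxide dismutase, known to stand in for the copper/zinc enzymes when copper is short. It was lower in crwn1 crwn2, with a log2 fold change of -1.21 by edgeR in the authors' deposited table (p = 1.15e-08) and an approximate interval of -1.63 to -0.80. Cuffdiff gives -0.97 in the authors' deposited table, which is a 1.95-fold fall against 2.32-fold by edgeR. FSD1 therefore moved the opposite way to CSD1 and CSD2. Its relative FSD2, a chloroplast iron superoxide dismutase, is listed for pwo1 only, at 0.61 in the authors' deposited table (edgeR p = 7.44e-05), and was not tested for a difference between the mutants. FSD3, CSD3 and the mitochondrial manganese enzyme gene MSD1 are in neither table.

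FRO4 (AT5G23980, minus strand, chr5:8097978-8101330) encodes a reductase of the plasma membrane known to reduce copper before uptake. It had the largest edgeR fall of the 6 members, at -1.95 in the authors' deposited table for crwn1 crwn2 (edgeR p = 7.61e-10), which is 3.86-fold lower. The approximate interval is -2.57 to -1.33, and Cuffdiff gives -1.81 in the authors' deposited table. By edgeR fold change FRO4 ranks 20 among the 842 genes listed as lower. Its neighbour FRO5 is identical at 92.6% of the aligned coding sequence, and the sources used here do not say how the authors' counting divided reads common to both, so the value of FRO4 is uncertain. FRO5 is in neither table.

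MIR398C (AT5G14565, plus strand, chr5:4694694-4694808) and MIR408 (AT2G47015, plus strand, chr2:19319814-19320031) were lower in crwn1 crwn2. The libraries were made for long RNA, so these values count fragments of the precursor transcripts, and the mature microRNAs were not measured. For MIR398C the authors' deposited table gives -1.58 by edgeR (p = 5.47e-06), 3.00-fold lower, with an approximate interval of -2.27 to -0.90. Cuffdiff gives -4.74 for it in the authors' deposited table, a 26.8-fold fall. For MIR408 the authors' deposited table gives -1.40 by edgeR (p = 3.81e-04), 2.63-fold lower, with an approximate interval of -2.17 to -0.63. Cuffdiff gives -4.24 for MIR408 in the authors' deposited table, a 19.0-fold fall with p = 0.00385. The direction is the same by both tools, but the size of the fall is not settled, and the Cuffdiff values lie outside the intervals derived from edgeR.

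**Figure D1:**
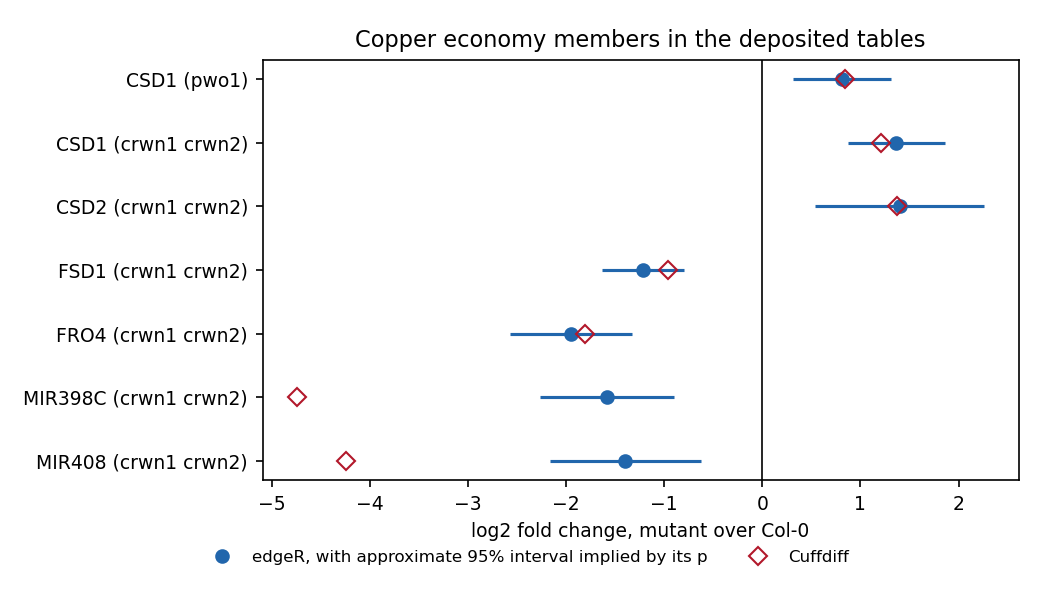
The horizontal axis is the log2 fold change over Col-0 from the authors' deposited tables and each line is a member in 1 comparison; filled points are edgeR with the approximate 95% interval implied by its p, open diamonds are Cuffdiff. CSD1 and CSD2 lie above 0, FSD1, FRO4, MIR398C and MIR408 lie below, and only the diamonds of MIR398C (-4.74) and MIR408 (-4.24) fall outside their intervals.

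The gap between the tools set the microRNA genes apart from the other members. In crwn1 crwn2 the median absolute gap between the log2 fold changes of Cuffdiff and edgeR was 0.042 over 1934 listed genes. MIR398C had a gap of -3.16 and MIR408 one of -2.85, which rank 4 and 6 by size, and 10 genes had a gap over 2. CSD1, CSD2, FSD1 and FRO4 had gaps between -0.16 and 0.25. MIR398C and MIR408 are also the only listed genes under 300 bases in TAIR10.1, at 115 and 218 bases. MIR163, the third microRNA gene listed for crwn1 crwn2, is annotated with 331 bases and had a gap of 0.078. The 2 genes under 300 bases both had a gap over 1, with a median absolute gap of 3.00, against 0.042 for genes of 300 bases or more. Of the 1934 listed genes, 17 had a gap over 1, and 15 of these have 300 bases or more. The 3 gaps larger than that of MIR398C belong to SPL3 (1072 bases, -4.38), AT1G19200 (1206 bases, 4.26) and AT3G21755 (3183 bases, -3.37), named after their values were seen. Large gaps thus occurred in both short genes and in few of the longer ones, and the part of length in the result was not tested.

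**Figure D2:**
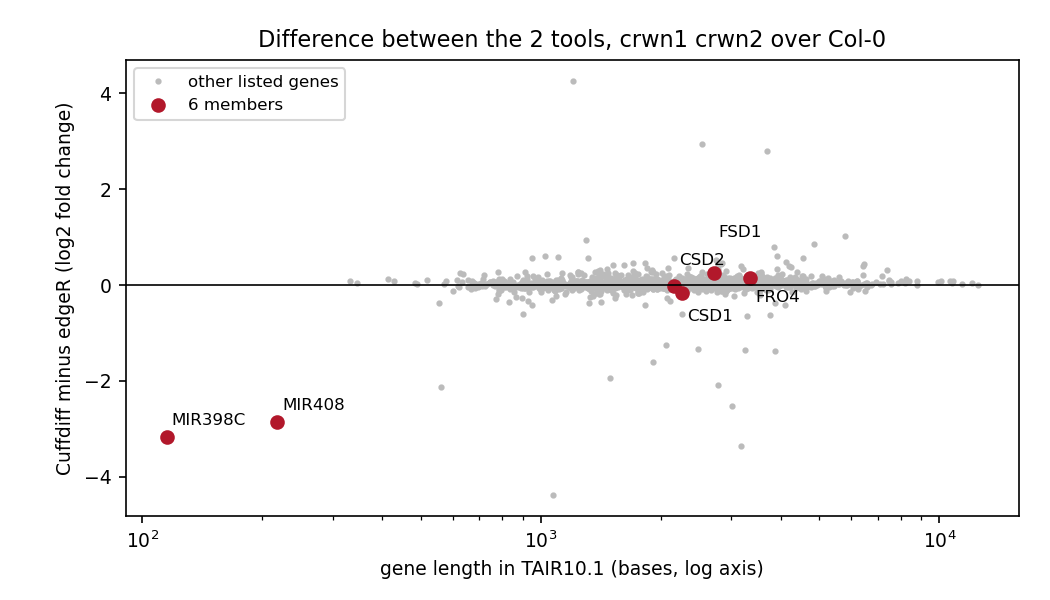
The horizontal axis is gene length in bases on a log axis and the vertical axis is Cuffdiff minus edgeR in log2 fold change for genes listed for crwn1 crwn2; grey points are other listed genes and red points the 6 members. MIR398C (-3.16) and MIR408 (-2.85) sit at the far left and far below 0, while the 4 longer members lie between -0.16 and 0.25; some long genes, such as SPL3 at -4.38, also lie far from 0.

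The neighbourhood of the microRNA genes adds values that bear on how their reads were assigned. MIR398C overlaps no annotated gene. Its hairpin is identical to that of MIR398B at 96.6% of aligned positions, and MIR398B is in neither table. The whole MIR398B hairpin lies in exons of AT5G14550 on the opposite strand. That gene is listed as lower in crwn1 crwn2, at -0.80 in the authors' deposited table (edgeR p = 4.41e-06) and -1.04 by Cuffdiff, and its message holds the full complement of miR398c-3p, with a penalty of 0. Likewise the whole MIR408 hairpin lies in exons of AT2G47020 on the opposite strand, and that gene is in neither table. The labels name a library kit that does not mark strand, so reads of a hairpin and of an overlapping message cannot be told apart by strand. AT5G14550 was looked up after its value was seen. The sources used here do not say how the authors' counting treated these overlaps.

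The DNA before MIR398C and MIR408 is dense in GTAC, the core of the copper response element. In the window from 250 bases before to 50 after the annotated start, GTAC occurred 4 times for MIR408 and 3 times for MIR398C. Of 37897 windows of this size in the genome, 0.491% hold 4 or more and 2.15% hold 3 or more, while 39.7% hold at least 1. Over the 500 bases before the start, a window chosen after seeing the data, MIR408 had 10 matches and MIR398C 8. Only 0.0449% of all genes have as many as MIR408 there and 0.0844% as many as MIR398C. Some copper microRNA genes that are in neither table were dense in GTAC as well. MIR398B had 5 matches in the shorter window, MIR397B 4 and MIR397A 3, and over the 500 bases they had 7, 6 and 6. The copper chaperone gene CCH and the metal transporter gene ZIP2 had 4 each in the shorter window. Over the 500 bases, however, CCH had 1, and 57.1% of all windows hold at least 1, while ZIP2 had 3. MIR398A had 0 in both windows, and MIR857 had 0 in the shorter window and 4 over the 500 bases. The density is therefore not particular to the genes listed as lower. The start of a microRNA gene is that of its annotated hairpin and not the start of transcription. The stretches with most of the matches of MIR398C and MIR408 are shown because GTAC is the known core of copper regulation. Capitals mark GTAC and the G-box CACGTG, both of which read the same on either strand, and the build is TAIR10.1.
MIR398C, positions -400 to -101 from the hairpin start, chr5:4694294-4694593, plus strand: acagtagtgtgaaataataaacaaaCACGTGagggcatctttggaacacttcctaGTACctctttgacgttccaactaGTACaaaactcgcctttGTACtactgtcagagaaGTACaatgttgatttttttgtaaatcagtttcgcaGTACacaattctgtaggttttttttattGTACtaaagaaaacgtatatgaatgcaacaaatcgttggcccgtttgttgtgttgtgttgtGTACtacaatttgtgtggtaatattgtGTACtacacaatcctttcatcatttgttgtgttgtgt
MIR408, positions -400 to -130 from the hairpin start, chr2:19319414-19319684, plus strand: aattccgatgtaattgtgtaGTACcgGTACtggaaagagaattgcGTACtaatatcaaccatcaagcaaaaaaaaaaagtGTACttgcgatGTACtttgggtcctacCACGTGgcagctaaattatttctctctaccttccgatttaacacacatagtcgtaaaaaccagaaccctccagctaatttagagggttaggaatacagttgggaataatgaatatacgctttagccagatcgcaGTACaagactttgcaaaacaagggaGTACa

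The protein-coding members did not share that density. FSD1 had 1 GTAC in its window, CSD1 had 2 and CSD2 and FRO4 had 0. Counts of this size are common, since 10.3% of all windows hold 2 or more. CACGTG, a motif bound by many basic helix-loop-helix and bZIP factors, was in none of the 6 windows and in 6.46% of all windows. In the 500 bases it occurred once before MIR398C and once before MIR408, against 8.16% of all genes with at least 1. A match is only a string of letters, and binding was not measured.

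**Figure D3:**
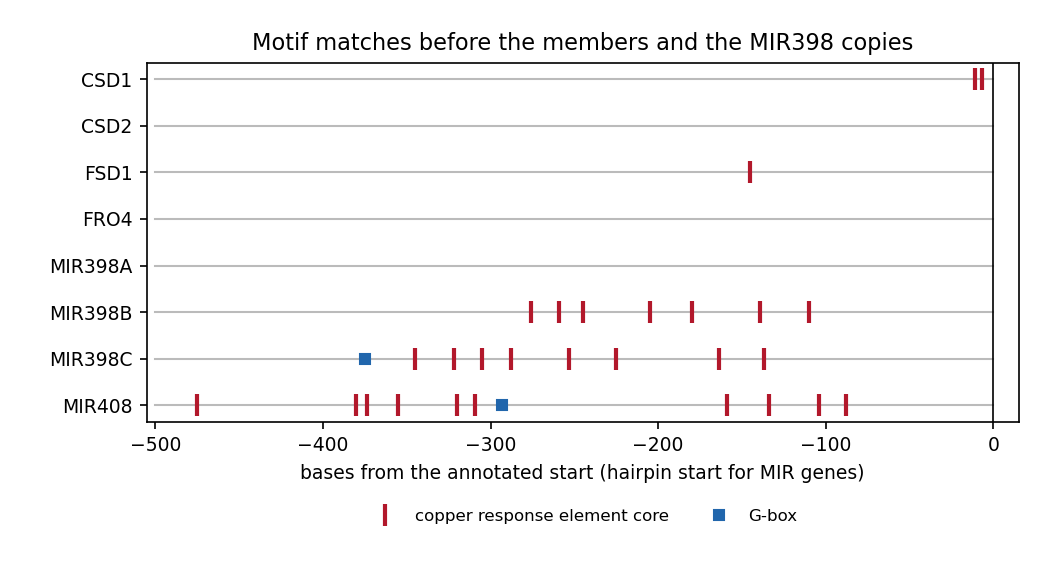
The horizontal axis is the distance in bases before the annotated start, 0 being the start of the gene or hairpin, and each line is 1 gene; red bars are copper response element cores and blue squares are G-boxes. MIR408 shows 10 bars, MIR398C 8 and MIR398B 7, against 2 for CSD1, 1 for FSD1 and 0 for CSD2, FRO4 and MIR398A.

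The rest of the copper pathway was followed in 8 lists with 52 genes in all, the members included. These lists were also chosen with earlier results known. Without the 6 members, 5 of 46 genes are listed for crwn1 crwn2, 3 higher and 2 lower, which is 10.9% of them beside 5.08% of all annotated genes and 6.91% of protein-coding genes. The 5 are the metal reductase genes FRO2, FRO3 and FRO8, with BCB and PETE1. For pwo1, 6 of the 46 are listed, 3 higher and 3 lower, which is 13.04% of them beside 3.25% of all annotated genes and 4.38% of protein-coding genes. Those listed for pwo1 are the metal reductase genes FRO2, FRO6 and FRO8, with FSD2, COX5b-1 and PETE1. Metal reductases, which include the ferric reductase gene FRO2, thus weigh in both shares. Nothing is read from these shares about the rest of the copper pathway. The median log2 fold change of these listed genes was 1.38 in crwn1 crwn2, which is the value of FRO3, and -0.14 in pwo1. The lists are short, with genes of opposite sign. Opposite signs cancel in those medians. They are therefore not comparable with the median absolute log2 fold change over all listed genes. That was 0.87 for crwn1 crwn2 and 0.83 for pwo1.

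The regulators, chaperones and transport genes of copper chosen here had no call in either mutant. SPL7, the main copper regulator, and CITF1, a copper-responsive basic helix-loop-helix factor, are not listed in either mutant. None of the 3 copper chaperone genes CCS, CCH and ATX1 is listed, although CCS is a known miR398 target with a low penalty. None of the 12 copper transport genes is listed, including the uptake transporters COPT1 and COPT2 and the pump HMA5. Over all annotated genes, 5.08% are listed for crwn1 crwn2 and 3.25% for pwo1. In lists this short a count of 0 lies near those shares, and nothing is read from it. Of the 7 copper microRNA genes, MIR398C and MIR408 are the 2 listed for crwn1 crwn2, and 0 are listed for pwo1. Over all microRNA genes of the reference, 0.92% are listed for crwn1 crwn2 and 0.307% for pwo1. The 0.92% is 3 of 326 genes, of which 2 are MIR398C and MIR408 themselves, so nothing is read from that contrast. A gene that is not listed is not shown to be unchanged.

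Among further targets of these microRNAs, 1 of 11 is listed in each mutant, which is 9.09% of the list beside 5.08% of all annotated genes for crwn1 crwn2 and 3.25% for pwo1, and with a list this short a single gene makes that share. BCB, a blue copper protein known from stress responses, was higher in crwn1 crwn2, at 2.23 by edgeR in the authors' deposited table (p = 6.31e-06) and 2.12 by Cuffdiff. COX5b-1 was higher in pwo1, at 0.44 in the authors' deposited table (edgeR p = 0.00353). Its adjusted p, bounded from the listed genes, could be as high as 0.11 with Benjamini-Hochberg adjustment over all 38094 annotated genes. The known miR408 targets ARPN, LAC3, LAC12, LAC13 and UCC2 are in neither table.

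Genes were also counted by complementarity alone, without regard to earlier reports of targeting. With no unpaired base, 28 genes had a penalty of up to 6 to miR398c-3p, of which 1 is listed as higher and 4 as lower in crwn1 crwn2, 17.9% of the 28. With 1 unpaired base allowed, 80 genes did, of which 2 are higher and 4 lower in crwn1 crwn2, 7.5% of the 80. In pwo1, 5 of the 80 are higher and 0 lower, 6.25%, while 1 of the 28 is higher and 0 lower, 3.57%. With no unpaired base, CSD1 is the 1 that is higher in each mutant. The 4 that are lower in crwn1 crwn2 are AT5G14550, the sodium exchanger gene NHX4 at -1.06, AT3G19230 at -1.26 and AT1G78020 at -0.66 in the authors' deposited table. With 1 unpaired base allowed, the 2 that are higher in crwn1 crwn2 are the members CSD1 and CSD2. The place of AT5G14550 among the 28 is fixed by position, since its exons hold the whole MIR398B hairpin on the opposite strand. For miR408-3p with no unpaired base, 43 genes had a penalty of up to 6, of which 3 are higher and 3 lower in crwn1 crwn2. That is 14.0% of the 43. With 1 unpaired base allowed, 98 genes did, of which 4 are higher and 4 lower in crwn1 crwn2, 8.16% of the 98. For pwo1, 1 of the 43 is higher and 2 are lower, 6.98%, and 3 of the 98 are higher and 3 lower, 6.12%. For miR398c-3p the genes listed as higher in crwn1 crwn2 are thus all members, picked with their values known. Nothing is read from their direction or from the shares that include them. Genes with a near match to miR408-3p went both ways in crwn1 crwn2. In that mutant 5.08% of all annotated and 6.91% of protein-coding genes are listed. In pwo1 the shares over all genes are 3.25% and 4.38%. For crwn1 crwn2 the share of 8.16% for miR408-3p lies near the share over protein-coding genes. The 7.5% for miR398c-3p also lies near it but includes CSD1 and CSD2.

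The FRO family of metal reductases split. FRO2, the root ferric reductase, was higher in both mutants, at 3.56 in pwo1 (edgeR p = 2.57e-22) and 2.80 in crwn1 crwn2 in the authors' deposited tables (edgeR p = 7.52e-10). FRO3, a mitochondrial reductase, was higher in crwn1 crwn2, at 1.38 in the authors' deposited table (edgeR p = 9.63e-09). FRO4 was therefore lower in the same seedlings in which FRO2 and FRO3 were higher. FRO8 was lower in both mutants, at -0.71 in pwo1 and -0.75 in crwn1 crwn2 in the authors' deposited tables. FRO6, known from green tissue, was lower in pwo1, at -0.82 in the authors' deposited table (edgeR p = 3.56e-08). FRO1, FRO5 and FRO7 are in neither table.

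PETE1, 1 of 2 plastocyanin genes, was lower in both mutants. The authors' deposited tables give -0.80 in pwo1 (edgeR p = 1.30e-06) and -0.62 in crwn1 crwn2 (edgeR p = 0.00114). PETE2, the other plastocyanin gene, is in neither table. Leaf marker genes moved in pwo1, where 4 of 6 were lower and 1 higher, beside 1.87% and 1.38% of all annotated genes. LHCB2.1 was at -1.36 and RBCS2B at 0.76 in the authors' deposited table, and both have close copies. In crwn1 crwn2, GLK1 was the 1 leaf marker listed, at -0.73 in the authors' deposited table, and 0 of 10 root markers are listed in either mutant. Over all annotated genes, 5.08% are listed for crwn1 crwn2 and 3.25% for pwo1, so nothing is read from that 0. The tables hold no levels, so the presence of leaf and root markers could not be checked, and the part of leaf content in these results was not tested.

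**Figure D4:**
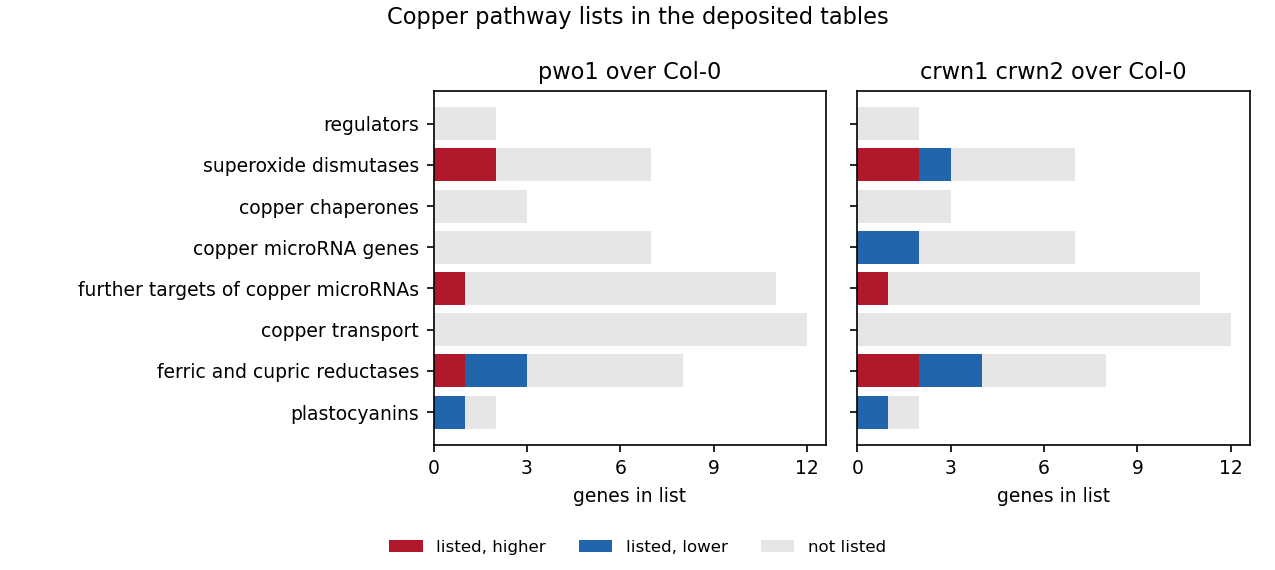
The horizontal axis is the number of genes in each copper pathway list, for pwo1 on the left and crwn1 crwn2 on the right; red is listed as higher, blue listed as lower and grey not listed. Copper transport (0 of 12) and chaperones (0 of 3) are grey throughout, and copper microRNA genes have 0 listed for pwo1 and 2 listed as lower for crwn1 crwn2, a difference that was not tested. Over all annotated genes, 3.25% are listed for pwo1 and 5.08% for crwn1 crwn2.

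CSD1 is the single member listed for both mutants, so likeness of pattern was taken for it alone. Over the 508 genes in both tables, the 3 nearest to CSD1 by distance in the pair of edgeR log2 fold changes were AT5G20400, AT2G37130 and CHIL. AT5G20400 is annotated as similar to a flavanone hydroxylase and has 0.78 in pwo1 and 1.34 in crwn1 crwn2 in the authors' deposited tables. AT2G37130 is annotated as a peroxidase and has 0.76 and 1.35 in the authors' deposited tables. CHIL, annotated in the chalcone isomerase family, has 0.75 and 1.27 in the authors' deposited tables. Likeness over a pair of comparisons that share Col-0 is a description only.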

How the data were processed

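Per the file headers, the 2 deposited tables hold, for edgeR and for Cuffdiff alike, the authors' log2 fold change with its p-value. Per the submitters' processing notes, the authors' tools included TopHat2 2.0.12, HTSeq 0.6.1, edgeR 3.3 and Cuffdiff 2.2.1, with build TAIR10. The sources used here do not state their order, the filter on low counts, the listing threshold or the use of strand. The largest p-values in the authors' tables were 0.00386 (edgeR) and 0.00455 (Cuffdiff) for pwo1 and 0.00585 and 0.0074 for crwn1 crwn2. The tables hold no library values, so depth is unknown and no replicate spread could be computed.

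A gene was called changed when listed. The members, lists and tests were chosen with earlier results of these data known. Named genes are the members, every listed gene of the copper lists, and the 3 genes nearest to each member listed in both tables. Other genes were named after their values were seen. Standard errors were implied from the authors' edgeR p-values (scipy 1.17.1). An upper bound on the adjusted p came from Benjamini-Hochberg adjustment of listed p-values over 38094 genes of RefSeq TAIR10.1, which may hold genes that the authors' annotation does not. Of listed genes, 1236 of 1239 and 1933 of 1935 matched it. The deposited tables carry no coordinates, and all coordinates and sequences come from TAIR10.1 by locus identifier. The bound and the site scan were tested on simulated data. Coding identities used Biopython 1.88. Protein sequences were not used here.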

Additional observations from a re-analysis of the deposited data

How the results depend on the processing

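The direction of all 6 members was the same by edgeR and by Cuffdiff in each comparison that lists them. With p under 0.001 required in both tools, CSD1 in pwo1 (0.81), CSD2 in crwn1 crwn2 (1.40) and MIR408 in crwn1 crwn2 (-1.40) were no longer called. CSD1 in pwo1 (0.81) was also lost with the adjusted p bound under 0.05 (bound 0.0558, Benjamini-Hochberg over the edgeR p-values) and at 2-fold. The bound is an upper limit, so whether the adjusted p itself passes is not settled. In the copper lists, higher genes in pwo1 went from 4 to 2 with the strict p, 2 with the bound and 1 at 2-fold, and lower genes from 3 to 0 at 2-fold. Without the members, they went from 3 to 1 and from 3 to 0 at 2-fold. In crwn1 crwn2, higher genes went from 5 to 3 with the strict p, and lower genes from 6 to 4 both with the strict p and at 2-fold. Without the members, lower genes there went from 2 to 1 with the strict p and to 0 at 2-fold. These falls follow from stricter limits on the same values. With protein-coding genes as the base, the listed share was 4.38% for pwo1 and 6.91% for crwn1 crwn2. Over 500 bases, chosen after seeing the data, GTAC matches summed over the members were 21 in place of 10 and CACGTG matches 2 in place of 0. Neither form of the site scan, with or without an unpaired base, was planned before the data were seen. Without an unpaired base the penalties were 10 for CSD2, 8 for COX5b-1 and 2 for ARPN. No paired analysis was possible because the tables hold comparisons and no libraries, and for the same reason no replicate could be left out.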

Other observations

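Outside the lists, other genes annotated with copper were looked up after their values were seen. In crwn1 crwn2 some related genes on chromosome 5, annotated as copper or heavy metal transport proteins, were higher. How many genes with this annotation are not listed was not counted, so nothing is read about the group. The authors' deposited table gives 1.87 for AT5G52720, 1.70 for AT5G52740, 1.46 for AT5G52750 and 2.50 for AT5G52760 (edgeR p = 2.12e-14). These are close neighbours by identifier, and related copies can share reads. AT4G39830, annotated with ascorbate oxidase activity, which depends on copper, was also higher, for which the authors' deposited table gives 1.37. The copper amine oxidase genes AT1G31690 and AT3G43670 were lower, at -1.30 and -0.86 in the authors' deposited table.

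LAC8, a laccase gene, was higher in both mutants, at 0.81 in pwo1 and 0.90 in crwn1 crwn2 in the authors' deposited tables. In pwo1 the metallothionein gene MT3, which binds copper and other metals, was lower, at -0.50 in the authors' deposited table.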
